A study of Homo sapiens with 6 samples.

Results

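Kinesins are motor proteins that walk along or take apart microtubules. They were taken from the deposited gene table as its protein-coding rows named KIF or KIFC followed by a number. The rule leaves out 1 further gene, which is in none of the counts or sums given here. It took 42 of 58735 genes, all 42 of them at the position that GENCODE release 29 gives on GRCh38. From general knowledge of their roles 15 were classed as mitotic, 14 as transport motors and 12 as other motors. The remaining row, KIF1BP, codes for a protein that binds kinesins and is not itself a motor.

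RNA sequencing of polyadenylated RNA compared MOLT-3 cells given compound E with MOLT-3 cells given its solvent DMSO, with 3 libraries in each group. MOLT-3 is a cell line established from a patient with T-cell acute lymphoblastic leukaemia. Compound E inhibits gamma-secretase, the protease that releases the active part of NOTCH receptors, and the study searched for genes under NOTCH1 control that bear on the response to chemotherapy. The sources used here do not give the dose or its duration. Nothing in the labels tells whether each library came from its own culture, so the p-values reflect the spread among these libraries, which may be technical.

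Most kinesins carry a motor domain that splits ATP, and a tail that sets what they hold. Mitotic kinesins are made mainly before and during cell division, when they separate the spindle poles, move and align chromosomes, and build the midzone where the cell is cut. Transport kinesins carry vesicles, organelles and protein complexes and work throughout the cell cycle, most visibly in the long axons of neurons.

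Total counts were 17316138 to 19845114 per library, and kinesin motors took 0.302% to 0.306% of all counts in the compound E libraries and 0.276% to 0.279% in the DMSO libraries. The NOTCH target HES4 averaged 2.67 ± 0.787 CPM with compound E and 79.7 ± 5.14 CPM with DMSO (SD, n = 3 each), and DTX1, HES1 and NOTCH3 were lower as well, with log2 fold changes of -4.60, -2.16 and -3.03. All 14 T-lineage markers looked at were present, at group means of 27.2 CPM or more. Of 15 markers of other cell types, 12 averaged under 1 CPM in both groups and 5 of these had no count in any library, while PECAM1 averaged 60.5 ± 0.528 CPM with compound E and 54.1 ± 2.14 CPM with DMSO. The markers of other cell types summed to 85.0 to 85.5 CPM in the compound E libraries and 79.0 to 82.4 CPM in the DMSO libraries. CPM are counts scaled to a common library size with TMM factors.

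Counts were high enough to test 33 of the 42 kinesin rows. Of these, 14 were higher with compound E, 6 were lower and 13 did not pass. A gene was called where its p in edgeR's quasi-likelihood test, after Benjamini-Hochberg adjustment over all tested genes, was under 0.05. The same test called 38.3% of all 16926 tested genes, with 18.9% higher and 19.4% lower, and 44.7% of the protein-coding genes. The calls fell unevenly over the classes. Among the mitotic kinesins 12 of 13 tested members were higher and 0 lower, with a median log2 fold change of 0.36. Among the transport kinesins 2 of 10 were higher and 3 lower, with a median of -0.04, and among the other motors 0 of 9 were higher and 3 lower, with a median of -0.14. Calls in either direction made up 92.3% of the tested mitotic kinesins, 50% of the transport kinesins and 33.3% of the other motors. The transport and other shares lay near those over all genes. The median over all tested genes was -0.0034. A test of the difference between the classes was not made. At an unadjusted p under 0.05, edgeR gave 1 mitotic kinesin lower and 0 other motors higher, and both DESeq2 and limma-voom again gave 0 adjusted calls in those places.

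**Figure D1:**
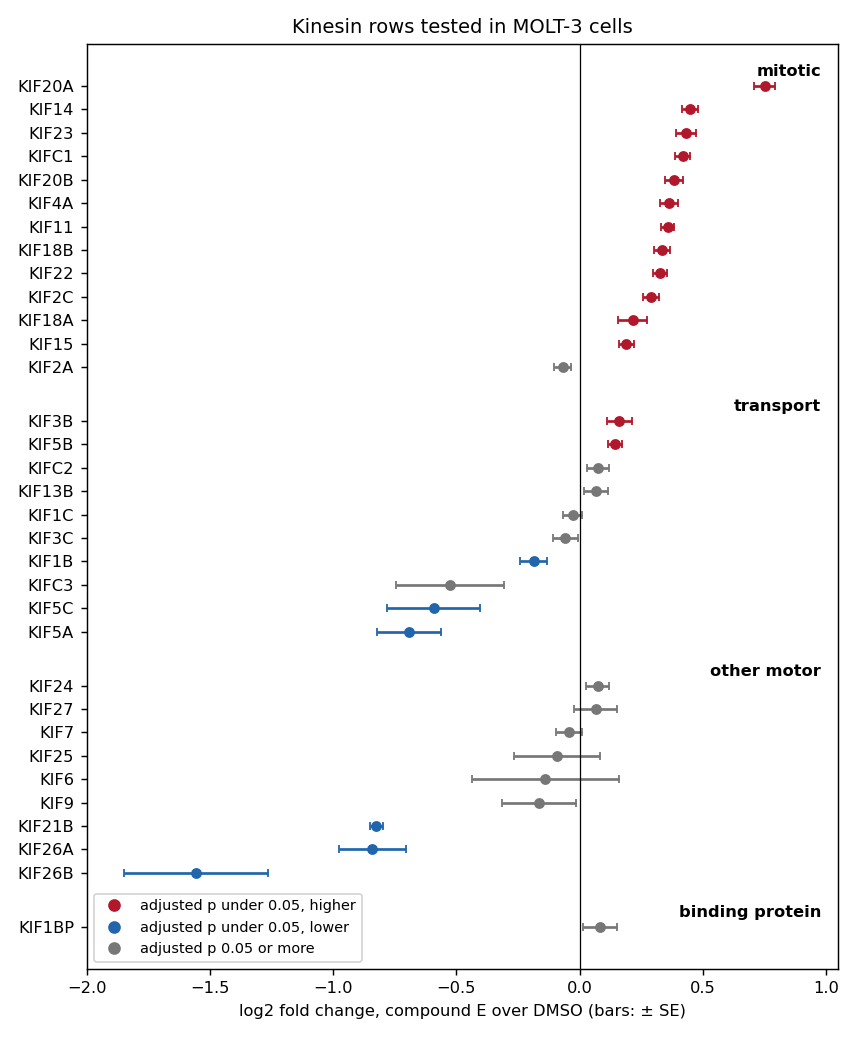
Log2 fold change of the 33 tested kinesin rows, compound E over DMSO, with bars of 1 standard error, ordered within each class and coloured by the edgeR call. The mitotic kinesins lie to the right of 0 except KIF2A, and the lowest values belong to KIF26B, KIF26A and KIF21B among the other motors.

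The mitotic kinesins rose 1.14-fold to 1.68-fold, with a median of 1.28-fold over the 12 members called higher. The largest rise was in KIF20A (chromosome 5, 138178719 to 138187715, plus strand, ENSG00000112984), which brings Aurora B to the spindle midzone. KIF20A stood at 93.6, 90.0 and 88.5 CPM in the compound E libraries, against 53.3, 52.2 and 56.5 CPM in the DMSO libraries. The lowest compound E library was far above the highest DMSO library. Its log2 fold change was 0.75 ± 0.0423 (SE; edgeR adjusted p = 6.62e-18), or 1.68-fold. Exons of KIF20A share 132 bases with BRD8 and 68 bases with CDC23 on the opposite strand, and the sources used here do not give the strand setting of the counting.

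The other motors of cytokinesis were higher too. KIF23, the motor of the centralspindlin complex that bundles the midzone, was at 107, 107 and 104 CPM in the compound E libraries, against 79.0, 73.9 and 83.6 CPM in the DMSO libraries. Its groups did not overlap, and it rose 1.35-fold, with a log2 fold change of 0.43 ± 0.0400 (edgeR adjusted p = 1.19e-11). KIF14, which works with citron kinase at the midbody, was at 157, 162 and 154 CPM in the compound E libraries, against 118, 114 and 116 CPM in the DMSO libraries, again without overlap, and rose 1.36-fold (edgeR adjusted p = 2.29e-14). KIF20B, also of the kinesin-6 family and needed for the completion of cytokinesis, averaged 111 ± 3.30 CPM with compound E and 85.5 ± 2.51 CPM with DMSO (SD, n = 3 each). KIF4A, a chromosome-bound motor that also limits the length of midzone microtubules, averaged 114 ± 1.32 CPM with compound E and 88.5 ± 2.37 CPM with DMSO. Both rose, at log2 fold changes of 0.38 ± 0.0373 and 0.36 ± 0.0360. KIF4B, an intronless near-identical copy of KIF4A, had 5, 4 and 7 counts in the compound E libraries, against 6, 2 and 4 counts in the DMSO libraries and was not tested, and the sources used here do not say how reads shared by the copies were counted.

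KIF11, KIF15 and KIFC1, which set the spacing and focus of the spindle poles, were each called higher. KIF11, also called Eg5, pushes the spindle poles apart and is a target of experimental cancer drugs. It was at 314, 314 and 311 CPM in the compound E libraries, against 246, 247 and 239.5 CPM in the DMSO libraries. The spread within each group was small beside the gap between them, and its log2 fold change was 0.36 ± 0.0275 (edgeR adjusted p = 7.75e-14). KIF15, which can take over from KIF11 in holding the poles apart, changed least of the 12 called, by 1.14-fold, and averaged 178 ± 3.23 CPM with compound E and 156 ± 3.11 CPM with DMSO (SD, n = 3 each). KIFC1 moves in the opposite direction along microtubules, focuses the poles and gathers extra centrosomes. It was at 211, 214 and 216 CPM in the compound E libraries, against 162, 154 and 164 CPM in the DMSO libraries. All compound E libraries were above all DMSO libraries, and the rise was 1.34-fold (edgeR adjusted p = 2.74e-14).

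The motors that move chromosomes and trim microtubule ends followed. KIF22, which pushes chromosome arms away from the poles, averaged 263 ± 4.70 CPM with compound E and 209.9 ± 1.54 CPM with DMSO and rose 1.25-fold. KIF18B and KIF2C shorten microtubules from their ends, and KIF2C corrects wrong attachments at centromeres. KIF18B averaged 237 ± 11.8 CPM with compound E and 188 ± 2.49 CPM with DMSO, and KIF2C averaged 157 ± 3.91 CPM with compound E and 128 ± 2.32 CPM with DMSO (SD, n = 3 each), with log2 fold changes of 0.33 ± 0.0320 and 0.29 ± 0.0326. KIF18A, which damps the swings of aligned chromosomes, was at 39.5, 33.3 and 36.9 CPM in the compound E libraries, against 30.7, 32.7 and 31.0 CPM in the DMSO libraries. Its closest libraries were only narrowly apart, its log2 fold change was 0.22 ± 0.0595 (edgeR adjusted p = 0.00348), and without compound E replicate 1 its adjusted p was 0.057.

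KIF2A was the exception among the 13. It is a microtubule depolymeriser of the spindle poles that also acts in neurons, and it was at 118, 115 and 116 CPM in the compound E libraries, against 124, 121 and 123 CPM in the DMSO libraries. The compound E libraries all lay below the DMSO libraries, by a small amount, and the log2 fold change of -0.07 ± 0.0335 did not pass (edgeR adjusted p = 0.106). It did pass with upper quartile scaling and with a filter of 5 CPM in 3 libraries (adjusted p = 0.0464 and 0.039). KIF2A shares 428 exon bases with IPO11, a gene on the same strand. KIF2B, its relative, had 0 counts in all 6 libraries.

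**Figure D2:**
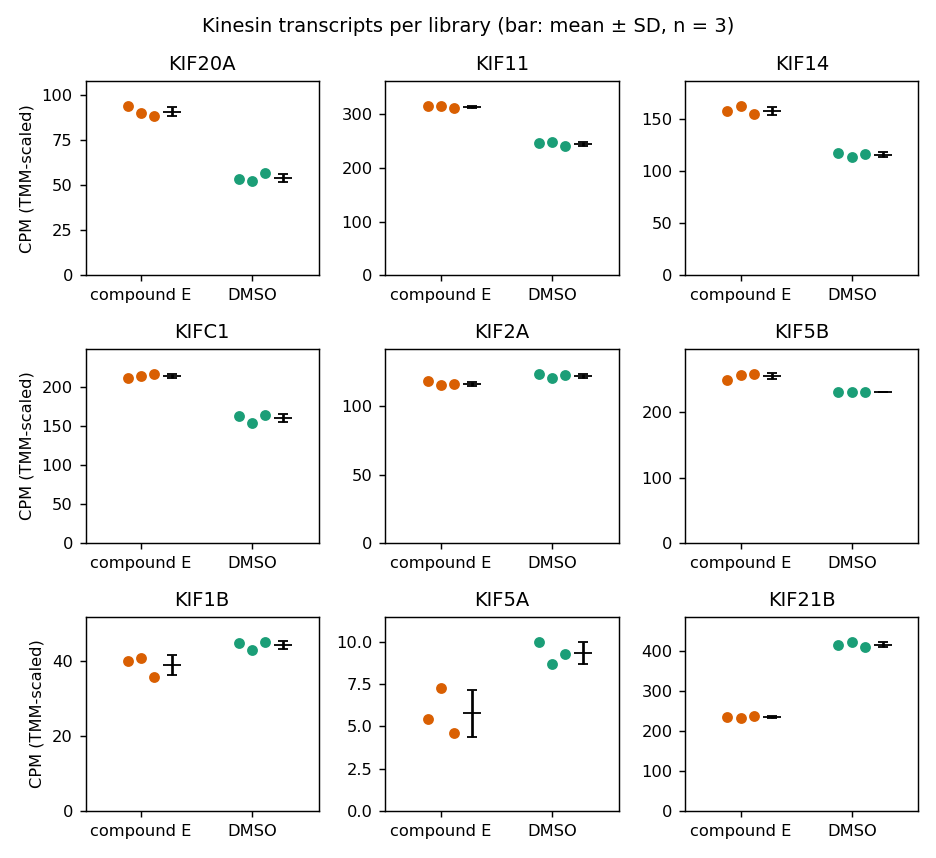
CPM of 9 kinesins in each library, compound E on the left and DMSO on the right of each panel, with the group mean and SD beside the points and axes that start at 0. KIF20A, KIF11, KIF14 and KIFC1 separate upwards with compound E, KIF2A and KIF5B differ little, and KIF21B lies at 233 to 236 CPM with compound E, against 409 to 421 CPM with DMSO.

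The mitotic members were also set side by side by promoter sequence, which the choice of members had not used. Late cell cycle genes are known for a short element, the cell cycle homology region, bound by MuvB complexes (DREAM in resting cells, and MuvB with B-MYB and FOXM1 in dividing cells), often beside CCAAT boxes bound by NF-Y. RefSeq promoter windows on GRCh38.p14, from 250 bases before to 50 bases after the RefSeq start, were found for 34 of the 42 rows. Where a gene had several windows the first listed was used, while the shares over all promoters count every window. The RefSeq start, called the gene start below, need not be the start of the counted row. The KIF5C window, for example, began at base 148947625 of chromosome 2, inside a row that starts at 148875250. The windows of KIFC2, KIF13B, KIF5A, KIFC3, KIF21B, KIF27, KIF26B and KIF19 were not used here. Both strands were searched for the cell cycle homology region, spelled TTTGAA in its usual form and TTCGAA in its variant form, and for the box spelled CCAAT. The E2F sites were spelled TTCGCGC in the first form, with TTGGCGC as the second form and TTCCCGC as the third. Matches of different motifs may overlap.

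Of the 15 mitotic kinesins 11 had the letters of the cell cycle homology region, or 73.3%, against 1 of 10 transport kinesins, 1 of 8 other motors and 16.4% of the 35116 promoters in the table. CCAAT was found in 11 of the 15, in 3 of 10, in 3 of 8 and in 34.6% of all promoters. Both stood in 10 mitotic windows, or 66.7%, and in 6.38% of all promoters. The E2F letters were found in 3 of 15 mitotic, 3 of 10 transport and 11.03% of all promoters. Among the 12 mitotic kinesins called higher, 10 had the cell cycle homology letters, 11 matches in all, and each match began between 55 bases before and 31 bases after the gene start. A match is a description of the letters and not a measured binding site.

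**Figure D3:**
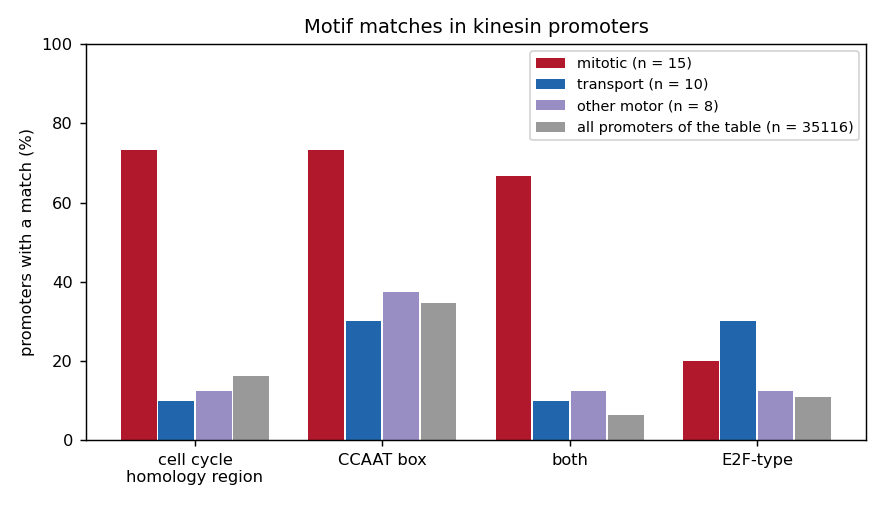
Share of promoter windows with a motif match, in percent, for mitotic, transport and other kinesins and for all 35116 promoters of the RefSeq table. Matches to the cell cycle homology region and to the CCAAT box were each found in 73.3% of the mitotic windows, against 16.4% and 34.6% of all windows.

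Parts of 6 windows are shown, each 200 bases long with 170 before the gene start, in the direction of the gene, with the cell cycle homology letters and CCAAT boxes in capitals. A match on the opposite strand reads TTCAAA for the homology region, while ATTGG is the reversed form of the box. KIF20A, KIF14, KIF11 and KIF23 stand for the mitotic motors that rose, KIF5B for the abundant transport motor that holds both motifs, and KIF1B for a transport motor that fell.
KIF20A (chr5:138178942-138179141, plus strand): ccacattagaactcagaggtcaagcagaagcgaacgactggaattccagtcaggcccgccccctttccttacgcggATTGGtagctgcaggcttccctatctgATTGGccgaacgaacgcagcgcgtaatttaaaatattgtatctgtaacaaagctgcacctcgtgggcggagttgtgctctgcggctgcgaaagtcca
KIF14 (chr1:200620722-200620921, minus strand): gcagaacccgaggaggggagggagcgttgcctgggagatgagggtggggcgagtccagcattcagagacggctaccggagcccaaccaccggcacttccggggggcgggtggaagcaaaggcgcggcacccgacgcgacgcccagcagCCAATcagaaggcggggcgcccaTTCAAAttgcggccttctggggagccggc
KIF11 (chr10:92592960-92593159, plus strand): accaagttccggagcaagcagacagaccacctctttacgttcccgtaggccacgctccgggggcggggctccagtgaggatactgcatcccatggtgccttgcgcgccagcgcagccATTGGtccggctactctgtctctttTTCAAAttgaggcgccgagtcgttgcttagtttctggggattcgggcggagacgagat
KIF23 (chr15:69414179-69414378, plus strand): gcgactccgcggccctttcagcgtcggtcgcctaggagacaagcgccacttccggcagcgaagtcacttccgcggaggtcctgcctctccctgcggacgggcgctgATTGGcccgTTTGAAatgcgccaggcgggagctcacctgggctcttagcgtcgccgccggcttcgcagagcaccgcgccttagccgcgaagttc
KIF5B (chr10:32056396-32056595, minus strand): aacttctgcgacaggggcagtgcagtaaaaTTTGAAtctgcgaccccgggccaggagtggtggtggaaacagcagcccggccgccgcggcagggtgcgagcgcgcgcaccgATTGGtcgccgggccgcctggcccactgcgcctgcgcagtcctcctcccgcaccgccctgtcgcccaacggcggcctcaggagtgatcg
KIF1B (chr1:10210400-10210599, plus strand): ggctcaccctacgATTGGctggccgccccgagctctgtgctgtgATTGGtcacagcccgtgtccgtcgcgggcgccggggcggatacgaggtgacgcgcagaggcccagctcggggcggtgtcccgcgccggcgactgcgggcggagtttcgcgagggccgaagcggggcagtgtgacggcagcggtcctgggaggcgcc
In KIF11 and KIF23 the CCAAT letters, read from the opposite strand, come just before the cell cycle homology letters. KIF20A, which rose most, has a pair of CCAAT boxes and no match to the cell cycle homology letters in this window. KIF2C, also called higher and not shown, has no match to the homology letters, the CCAAT box or the E2F letters in its window. In KIF5B, which was also called higher, the cell cycle homology letters begin 140 bases before the start, outside the span of the mitotic kinesins that rose. That span was taken from members called in these data and was not tested as a boundary. In KIF24, of the other motors and not shown, they begin at base 2 from the start, inside that span. The KIF24 window, at 34329219 to 34329518 of chromosome 9, lies outside the counted row, which ends at 34311371. KIF24 also has CCAAT boxes, and it was not called (edgeR adjusted p = 0.252). KIF1B has CCAAT boxes alone.

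The transport kinesins showed no common direction. KIF5B, the conventional kinesin heavy chain of most cell types, was at 249.5, 258 and 258 CPM in the compound E libraries, against 231, 231 and 231 CPM in the DMSO libraries. Its groups did not overlap and it rose 1.10-fold, with a log2 fold change of 0.14 ± 0.0283 (edgeR adjusted p = 8.34e-05). The other conventional heavy chains, known mainly from neurons, went the other way at much lower counts. KIF5A was at 5.42, 7.30 and 4.62 CPM in the compound E libraries, against 9.998, 8.68 and 9.30 CPM in the DMSO libraries, all lower with compound E, and fell 1.62-fold (edgeR adjusted p = 3.31e-05). KIF5C had 34, 41 and 58 counts in the compound E libraries, against 68, 73 and 64 counts in the DMSO libraries. These groups did not overlap either, and its log2 fold change was -0.59 ± 0.188 (edgeR adjusted p = 0.0111), but DESeq2 (adjusted p = 0.0505) and limma fitted to log2 FPKM (0.0616 and 0.0692) did not call it, nor did edgeR without compound E replicate 1 (0.0856).

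Of the kinesin-2 motors, which pull cargo along cilia and axons, KIF3B averaged 43.0 ± 1.203 CPM with compound E and 38.5 ± 0.236 CPM with DMSO and rose 1.12-fold (edgeR adjusted p = 0.0107). Its relative KIF3C averaged 38.0 ± 0.773 CPM with compound E and 39.5 ± 1.09 CPM with DMSO (SD, n = 3 each) and did not pass, at a log2 fold change of -0.06 ± 0.0519. In the kinesin-3 family KIF1B, a carrier of mitochondria and synaptic vesicle precursors, was at 40.2, 40.9 and 35.9 CPM in the compound E libraries, against 44.9, 43.1 and 45.2 CPM in the DMSO libraries. It was lower in all compound E libraries, by 1.14-fold (edgeR adjusted p = 0.00479), and lost the call with limma on FPKM (adjusted p = 0.158 and 0.164) and without compound E replicate 3 (0.0607). KIF1C and KIF13B, further vesicle carriers of that family, did not pass, at -0.03 ± 0.0402 and 0.07 ± 0.0479. Nor did the minus-end motors KIFC2 (0.07 ± 0.0456) and KIFC3 (-0.52 ± 0.219; edgeR adjusted p = 0.0557). KIFC3 did pass without DMSO replicate 3 or compound E replicate 3 (adjusted p = 0.00755 and 0.0214), and KIFC2 without DMSO replicate 2 (0.0284). KIFC2 shares 791 exon bases with FOXH1 on the opposite strand.

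The largest fall at high counts was in KIF21B (chromosome 1, 200969390 to 201023700, minus strand, ENSG00000116852), a kinesin-4 motor that limits microtubule growth and in T cells helps the centrosome turn towards the contact with a target cell. KIF21B was at 234, 233 and 236 CPM in the compound E libraries, against 414, 421 and 409.5 CPM in the DMSO libraries. The groups stood far apart and varied little within themselves. The log2 fold change was -0.82 ± 0.0271 (SE; edgeR adjusted p = 1.80e-25), a fall of 1.77-fold. Its relative KIF21A was nearly silent, with 0, 0 and 0 counts in the compound E libraries, against 0, 2 and 0 counts in the DMSO libraries. KIF21B lies 348656 bases from KIF14 on chromosome 1, and the neighbours went in opposite directions.

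The atypical kinesins KIF26A and KIF26B bind microtubules without working as ATP-driven motors, but were kept in the class of other motors and in its sums. They also fell, at low counts. KIF26A had 80, 81 and 67 counts in the compound E libraries, against 135, 152 and 131 counts in the DMSO libraries. KIF26B had 7, 12 and 23 counts in the compound E libraries, against 37, 53 and 37 counts in the DMSO libraries. Both were lower in every compound E library, at log2 fold changes of -0.84 ± 0.136 (edgeR adjusted p = 3.15e-06) and -1.56 ± 0.292 (edgeR adjusted p = 3.57e-05). The remaining motors of this class did not pass. They include KIF7, a regulator of hedgehog signalling (-0.04 ± 0.0519), its relative KIF27 (0.07 ± 0.0879), KIF24, which restrains the growth of cilia (0.07 ± 0.0483), and the cilia motors KIF9 (-0.17 ± 0.150) and KIF6 (-0.14 ± 0.298). KIF25 was at -0.09 ± 0.175, and KIF1BP, the binding protein, at 0.08 ± 0.0682. KIF7 shares 589 exon bases with TICRR and KIF9 shares 870 with KIF9-AS1, each on the opposite strand.

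The 9 rows that were not tested had at most 8 counts in any library. Besides KIF4B, KIF2B and KIF21A they were KIF17, KIF13A, KIF1A and KIF16B of the transport class and KIF19 and KIF12 of the other motors. KIF16B, an early endosome motor, had 0 counts in all libraries. KIF13A, a recycling endosome motor, had 1, 1 and 4 counts in the compound E libraries, against 7, 6 and 7 counts in the DMSO libraries. KIF1A, the neuronal carrier of synaptic vesicle precursors, had 1, 2 and 3 counts in the compound E libraries, against 6, 3 and 0 counts in the DMSO libraries. Of the 33 tested rows, 21 had groups that did not overlap, against 46.8% of all tested genes, and 6 of the called rows differed by at least 1.5-fold, a size that 8.68% of all tested genes reached with a call.

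Levels were compared between genes with the deposited FPKM, which divide by gene length. With DMSO the 4 highest kinesins were mitotic, in the order KIF11, KIF22, KIFC1 and KIF18B. KIF11 averaged 64.1 ± 0.371 FPKM with compound E and 49.8 ± 0.845 FPKM with DMSO, KIF22 60.7 ± 1.11 FPKM with compound E and 48.2 ± 0.279 FPKM with DMSO and KIFC1 63.7 ± 0.814 FPKM with compound E and 47.4 ± 1.67 FPKM with DMSO (SD, n = 3 each). The gaps between these 3 were of the order of their spread with DMSO. KIF5B, at 43.2 ± 0.862 FPKM with compound E and 39.0 ± 0.102 FPKM with DMSO, was the highest transport kinesin, followed by KIFC2 at 16.6 ± 0.536 FPKM with compound E and 15.7 ± 1.163 FPKM with DMSO and KIF1C at 9.15 ± 0.163 FPKM with compound E and 9.28 ± 0.404 FPKM with DMSO. KIF21B was the highest of the other motors, ahead of KIF7 and KIF24, and ranked 12 among all 42 rows with compound E and 7 with DMSO, at 19.2 ± 0.155 FPKM with compound E and 33.8 ± 0.482 FPKM with DMSO. KIF20A went the other way, ranking 10 with compound E and 13 with DMSO.

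Summed over the class, mitotic kinesins made up 449 ± 1.77 FPKM with compound E and 354 ± 3.81 FPKM with DMSO (SD, n = 3 each). The transport kinesins summed to 91.2 ± 1.02 FPKM with compound E and 86.5 ± 0.477 FPKM with DMSO, and the other motors to 40.5 ± 0.715 FPKM with compound E and 55.5 ± 0.483 FPKM with DMSO. Mitotic motors held 77.2% to 77.4% of the summed kinesin FPKM in the compound E libraries and 71.0% to 71.6% in the DMSO libraries. The share of KIF21B alone was 3.31% ± 0.0102 with compound E and 6.82% ± 0.135 with DMSO.

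**Figure D4:**
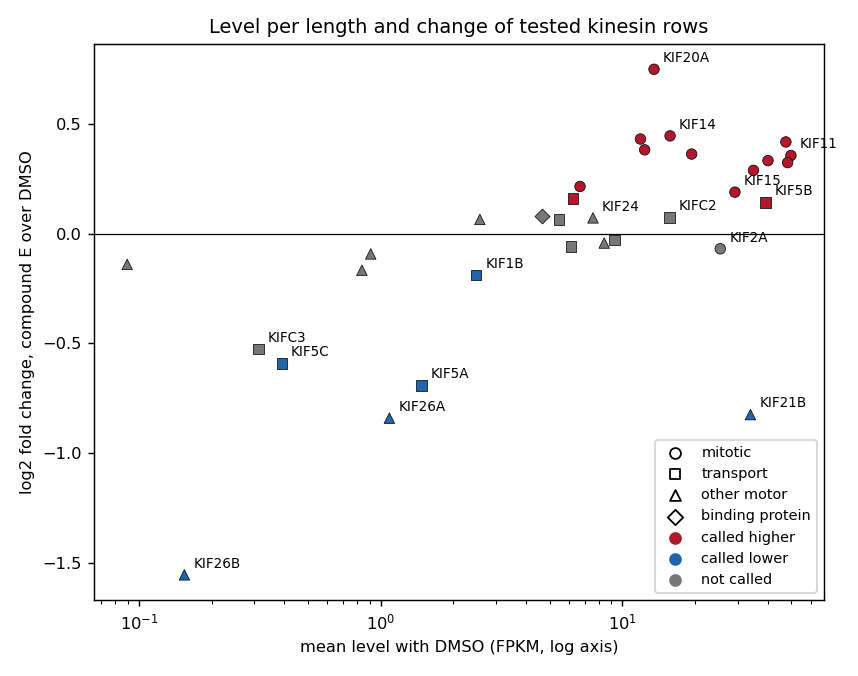
Mean FPKM with DMSO on a log axis against the log2 fold change of compound E over DMSO for the 33 tested kinesin rows, with shapes for the classes and colours for the edgeR calls. Most mitotic kinesins lie at upper right, KIF21B stands alone at lower right, and the falls of KIF5A, KIF5C, KIF26A and KIF26B are at low FPKM.

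Proteins that work with the mitotic kinesins on the spindle were covered by a list of partner genes. Of 24 tested partners 19 were higher with compound E and 0 lower, with a median log2 fold change of 0.34. Of all tested genes, 38.3% were called in either direction and 18.9% were called higher. At an unadjusted p under 0.05 edgeR gave 1 partner lower, and DESeq2 and limma-voom gave 0 adjusted calls lower. Those with the smallest p were BIRC5, of the chromosomal passenger complex (0.54 ± 0.0306), TACC3, which binds clathrin on spindle fibres (0.50 ± 0.0289), GTSE1, an inhibitor of KIF2C (0.52 ± 0.0306), and PLK1, a mitotic kinase (0.59 ± 0.0352). Partners of single kinesins, picked after their values were seen, were RACGAP1, which joins KIF23 in centralspindlin (0.33 ± 0.0335), TPX2, which targets KIF11 and KIF15 to the spindle (0.37 ± 0.0257), and CIT, the citron kinase held by KIF14 (0.28 ± 0.0297). CENPE, a kinetochore kinesin whose name the rule does not match, was at 0.46 ± 0.0378 and averaged 129.6 ± 2.43 CPM with compound E and 94.4 ± 5.60 CPM with DMSO (SD, n = 3 each). The 5 partners that did not pass were PRC1 (0.29), MAPRE3 (-0.38), CLASP1 (-0.05), NUMA1 (0.04) and CLASP2 (0.01). PRC1 and MAPRE3 had few counts. PRC1 averaged 5.93 CPM with compound E and 4.87 CPM with DMSO, and MAPRE3 2.43 CPM with compound E and 3.17 CPM with DMSO.

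Markers of the G2 and M phases other than kinesins were called higher in all 20 of 20 cases, beside 18.9% of all tested genes. Their log2 fold changes were 0.23 to 0.82, with a median of 0.41. These markers were led by HMGB2 (0.53 ± 0.0240), CDC20 (0.82 ± 0.0380), CCNB2 (0.75 ± 0.0375) and DLGAP5 (0.78 ± 0.0406). Of 18 markers of S phase 5 were higher, RRM2 (0.47), CCNE2 (0.59) and SLBP (0.25) among them, and 8 lower, including MCM2 (-0.25), with a median of 0.0029. Calls in either direction made up 72.2% of them, against 38.3% of all tested genes. A larger share of cells in G2 and M and more of these RNAs per cell cannot be told apart in bulk RNA, and the part of the G2 and M genes in the rise of the mitotic kinesins was not tested.

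Partners of the transport kinesins had 4 of 20 tested genes higher and 4 lower, with a median of -0.05, and this share of calls was near the 38.3% of all tested genes. RHOT2, a mitochondrial anchor of kinesin adaptors (0.22 ± 0.0322), and TRAK2, an adaptor between KIF5 and mitochondria (0.42 ± 0.0658), rose. KLC4, a kinesin light chain (-0.30 ± 0.0499), fell. KIFAP3, the cargo subunit of kinesin-2, did not pass (0.02 ± 0.0537).

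Cytoplasmic dynein and dynactin, the machinery that runs against most kinesins, had 7 of 19 tested genes higher and 2 lower, with a median of 0.08. The 47.4% called in either direction lay near the 44.7% of protein-coding genes called. By direction, 18.9% of all tested genes were called higher and 19.4% lower, and the direction of the calls in this list was not tested. DYNLL1 (0.49 ± 0.0351) and DYNLL2 (0.26 ± 0.0305), light chains shared with other complexes, DCTN3, a dynactin subunit (0.38 ± 0.0398), and NDE1, a dynein regulator of mitosis (0.31 ± 0.0435), rose. Tubulins, the material of the track itself, had 7 of 11 tested genes higher and 0 lower, with a median of 0.29, beside 18.9% of all tested genes called higher. DESeq2 and limma-voom also gave 0 lower, and so did edgeR at an unadjusted p under 0.05. TUBB4B averaged 284 ± 7.72 CPM with compound E and 156 ± 2.27 CPM with DMSO (SD, n = 3 each), a rise of 1.82-fold. TUBA1C (0.54 ± 0.0405) and TUBA1B (0.35 ± 0.0266) rose too, and TUBA4A had the largest fold change at low counts (2.31 ± 0.233). Tubulin genes are close copies of each other, so the split of reads among them is uncertain.

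**Figure D5:**
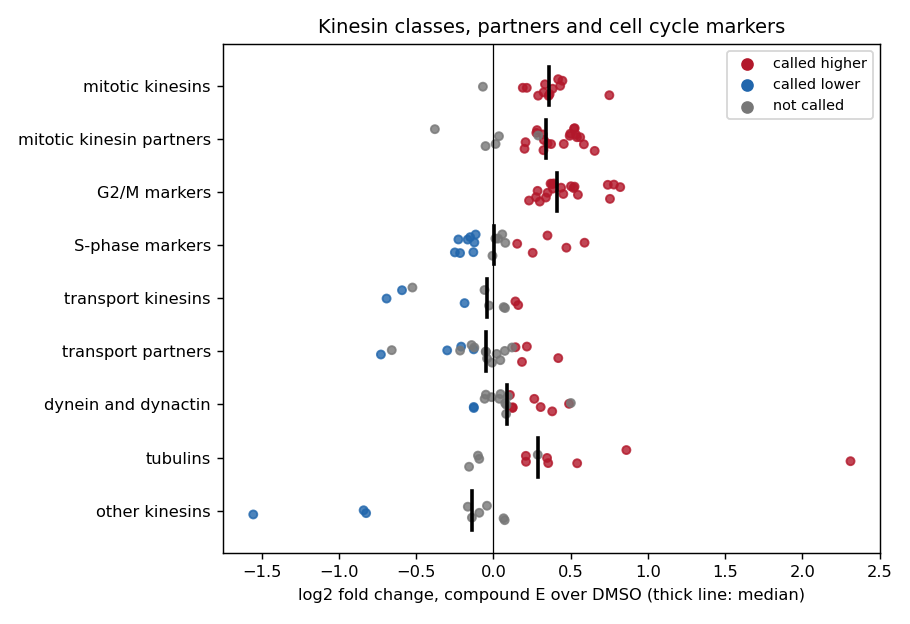
Log2 fold change of every tested gene in the kinesin classes and in the lists of partners and markers, compound E over DMSO, coloured by the edgeR call, with a thick line at each median. Mitotic kinesins, their partners and the G2/M markers have medians of 0.36, 0.34 and 0.41, while transport kinesins, their partners and S-phase markers centre near 0.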

How the data were processed

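Polyadenylated RNA of 6 MOLT-3 libraries was sequenced, and samples were grouped by the treatment in their labels. HISAT2 2.0.5, featureCounts 1.5.0-p3 and DESeq2 1.16.1 are named in the submitters' processing notes, with no role or order. The deposited table of counts holds whole-number reads per gene that the authors had not normalised. The deposited FPKM of the authors equal these counts divided by gene length and by 1 divisor per library. The sources used here do not give the genome build, the strand setting or the handling of reads with several matches. Gene positions were identical to GENCODE release 29 for 58735 of 58735 genes.

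The counts were fitted with edgeR 4.0.16 in R 4.3.3: filterByExpr (16926 genes kept), TMM, quasi-likelihood F-test with treatment as the only term, and Benjamini-Hochberg adjustment over all tested genes at 0.05. A standard error is the size of the log2 fold change over the root of its F value. The biological coefficient of variation was 2.72%. Replicate pairs differed by more than counting noise (chi-square of 1.65 to 2.79 per gene) and no pair was treated as 1 library deposited more than once. The pairs with compound E replicate 3 gave 2.70 and 2.79, and the other pairs at most 1.89. The counts of low genes carry counting error, and 9 kinesin rows were too low to test. Members, classes and lists were chosen with earlier results of these data known. Every member is accounted for, and from each list up to 4 called genes with the smallest p were to be named, with further ones marked where they appear. Motifs were searched in RefSeq promoter windows. Figures were drawn with matplotlib 3.10.9. Alternatives were other scalings and filters, DESeq2 1.42.0, limma 3.58.1 with voom or on log2 FPKM with pseudocounts of 1 and 0.1, a replicate block, another class assignment, and each library left out.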

Additional observations from a re-analysis of the deposited data

How the results depend on the processing

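Of 20 kinesins called, 16 kept their call in all 16 alternatives of tool, scaling, filter, unit, block and left-out library. KIF26B kept its call in the 15 that tested it and, like KIF5C, had too few counts for a filter of 5 CPM in 3 libraries, which left 2 other motors lower. KIF18A, KIF1B and KIF5C each lost the call at least once. The count of mitotic kinesins lower became 1 with upper quartile scaling and 1 with a filter of 5 CPM in 3 libraries, in both cases KIF2A, and the count of transport kinesins lower became 1 with limma on log2 FPKM at either pseudocount. Leaving out each library gave 11 to 12 mitotic kinesins higher and 0 lower, 2 to 3 transport kinesins higher and 2 to 4 lower, 0 other motors higher and 3 lower, 13 to 15 kinesins higher and 5 to 7 lower in all, and 2838 to 3027 of all genes higher and 2833 to 3041 lower. Same-numbered libraries did not deviate together (correlations of -0.02 to 0.01), and the replicate block gave 14 kinesins higher and 6 lower, with 12 mitotic higher. Counting KIF21A and KIF21B as transport and KIF2A as an other motor gave 12 mitotic kinesins higher and 0 lower, 2 transport higher and 4 lower, and 0 other motors higher and 2 lower. The mitotic counts could not change here, since only KIF2A left that class and it was not called. Kinesins with under 10 CPM rest on few counts, so small changes in them were not detectable at this depth.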
